A study of Mus musculus with 6 samples.

Results

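A group of lesional fibroblast nuclei with UMIs of Slc47a1, Slc47a2, Pde11a and related genes was described in snRNA-seq libraries of mouse cortex after photothrombotic (PT) injury, in which light and a dye close cortical vessels. A nucleus was counted as a member when its barcode held at least 1000 unique molecular identifiers (UMIs, the counted RNA molecules) with under 5% from mitochondrial genes, and when at least 2 of the 4 fibroblast genes Col1a2, Col3a1, Col5a2 and Bicc1 and at least 3 of the 8 marker genes Slc47a1, Slc47a2, Pde11a, Trdn, Npr3, Slc26a7, Kcnk5 and Fgf7 were detected. At most 1 of 6 further genes could be detected, namely Lama1, Lamc3, Slc22a6 and Slc13a4, which mark meningeal fibroblasts, and Ptprc and Csf1r, which mark immune cells. By this rule 4807 of the 67360 barcodes were members, of which 4243 (88.3%) came from 21 days post injury (dpi). The members were chosen by detection of these genes, so their levels are given as a description, and everything that sets members against other nuclei rests on that choice and carries no test.

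Each of the 6 libraries held nuclei of dissected lesions sorted on DAPI, pooled from 1 male and 1 female mouse. Ctrl mice were wild-type with no treatment listed and were collected at 7 or 21 dpi. ADWA11 mice were wild-type animals that received a blocking antibody against integrin αvβ8 starting on the day of injury, and were collected at the same times. Tgfbr2-cKO mice carried Col1a2(creER) and Tgfbr2(flox), so that tamoxifen-induced Cre, driven by Col1a2, removes the type II TGFβ receptor from fibroblasts; the study found that this Cre recombined in only part of the brain fibroblasts. All 3 conditions received the injury, and the labels give no age for a library. With 1 library for each condition and day, no comparison between libraries was tested. The 95% intervals given here cover counting error only, and fewer such nuclei in a lesion cannot be told apart from fewer recovered ones.

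Fibroblasts of the brain lie in the dura, arachnoid and pia and around vessels, and after injury they enter the lesion and lay down extracellular matrix. TGFβ is released from its latent complex by integrins such as αvβ8 and signals through Tgfbr2 to SMAD transcription factors, which raise collagen and contractile genes. Among the marker genes, Slc47a1 and Slc47a2 encode proton-coupled exporters of organic cations, Slc26a7 an anion exchanger, Kcnk5 a potassium leak channel of the TASK family and Npr3 the clearance receptor for natriuretic peptides. Pde11a encodes a phosphodiesterase that degrades cAMP and cGMP, Trdn encodes triadin, which anchors calsequestrin at calcium release channels, and Fgf7 encodes a growth factor for epithelial cells.

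In mm10, Slc47a2 (chr11:61301631-61342860) and Slc47a1 (chr11:61343401-61378345) lay next to each other on the minus strand with 540 bases between them. Pde11a lay on chr2:75989141-76338774 (minus strand), Trdn on chr10:33080554-33476709 (plus), Npr3 on chr15:11839896-11907287 (minus), Slc26a7 on chr4:14502430-14621805 (minus), Kcnk5 on chr14:20140057-20181809 (minus) and Fgf7 on chr2:126034658-126091185 (plus). RefSeq windows from 250 bases before to 50 bases after the gene start (GRCm38.p6) were matched for 5 of the 8 marker genes. They were searched on both strands for CAGAC (reverse complement GTCTG), the letters of the SMAD box, because the study blocked TGFβ signalling. A match was present in 49.6% of all 32851 windows, and 4 or more matches in 0.907%. The Kcnk5 window held 4 matches, those of Slc47a2, Pde11a and Fgf7 held 1 each and that of Npr3 held 0, which describes these letters only. The windows of 3 genes are shown 5′ to 3′ on the gene's strand, Slc47a2 and Pde11a as the transporter and the enzyme with the highest member levels among those matched and Kcnk5 for its 4 matches, with the motif letters in capitals.
Slc47a2, chr11:61342811-61343110, minus strand: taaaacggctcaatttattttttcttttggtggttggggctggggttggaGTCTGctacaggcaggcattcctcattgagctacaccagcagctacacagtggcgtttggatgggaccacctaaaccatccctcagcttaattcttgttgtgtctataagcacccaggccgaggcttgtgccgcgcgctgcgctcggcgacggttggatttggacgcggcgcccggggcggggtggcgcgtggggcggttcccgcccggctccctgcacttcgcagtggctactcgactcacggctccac
Pde11a, chr2:76338889-76339188, minus strand: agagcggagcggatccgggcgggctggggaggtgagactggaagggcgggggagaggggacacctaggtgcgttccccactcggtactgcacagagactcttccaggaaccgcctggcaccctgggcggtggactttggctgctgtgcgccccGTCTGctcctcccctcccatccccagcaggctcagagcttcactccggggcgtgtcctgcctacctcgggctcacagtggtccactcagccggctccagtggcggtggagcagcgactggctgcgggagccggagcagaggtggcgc
Kcnk5, chr14:20181733-20182032, minus strand: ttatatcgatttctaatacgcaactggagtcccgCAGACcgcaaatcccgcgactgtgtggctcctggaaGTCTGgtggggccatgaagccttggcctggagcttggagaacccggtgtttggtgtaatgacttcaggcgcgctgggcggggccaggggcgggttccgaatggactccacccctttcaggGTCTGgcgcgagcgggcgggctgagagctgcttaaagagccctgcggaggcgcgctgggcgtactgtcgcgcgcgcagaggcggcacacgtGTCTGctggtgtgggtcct

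The libraries held between 64798965 and 140310354 UMIs in 7205 to 14246 barcodes. The fibroblast gate, meaning nuclei that met the UMI, mitochondrial and fibroblast-gene limits with at most 1 of Ptprc and Csf1r, numbered 21867 nuclei, of which members were 22.0%. Members held more UMIs than other gate nuclei in 5 of the 6 libraries, with medians of 7786.5 to 11985 against 4759 to 8919, and fewer in Tgfbr2-cKO at 7 dpi (7859 against 8390.5), and deeper nuclei pass a rule of detected genes more easily. Doublets were scored but not removed, and the called share of members was 4.73% to 13.4% by library. Library pairs shared 21 to 61 barcodes, of which 0 to 2 were members in both. At least 2 of 6 neuronal markers were detected in 32.4% of the 37 members in Tgfbr2-cKO at 7 dpi and in 10.8% of the 185 at 21 dpi, against at most 0.946% elsewhere. The gate was therefore also restricted, after these values had been seen, to the 11 of 24 clusters in which at least 4 of 8 general fibroblast genes were widely detected and under 2 markers of each list of immune, vascular, glial and neuronal cells were raised (fibroblast-type clusters), which kept 4237 (88.1%) of the members. Clusters 12 and 19 among these raised 5 and 6 osteoblast markers and cluster 17 raised 6 proliferation markers, and they held 19, 3 and 36 members. Tgfbr2 stood, in the order Ctrl, ADWA11 and Tgfbr2-cKO used for all values below, at 324, 266 and 119.9 CPM at 7 dpi and 227, 204 and 189 CPM at 21 dpi in members (CPM, counts per 1000000 non-mitochondrial UMIs, summed over the members of a library). The log2 ratio of Tgfbr2-cKO to Ctrl at 21 dpi was -0.26 (-0.41 to -0.12). These UMIs are 3′ tags and need not cover the deleted part of the gene, so they do not check the deletion.

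Slc47a1, after which the group is named and by which the rule chose it in part, was detected in most members of each library except Tgfbr2-cKO at 21 dpi. Slc47a1 was detected in 73.8%, 69.4% and 67.6% at 7 dpi and 93.0%, 85.6% and 42.7% at 21 dpi of members. Summed levels of Slc47a1 were 414, 386 and 251 CPM at 7 dpi and 1041, 947 and 251 CPM at 21 dpi, with 95% intervals of 1027 to 1055 in Ctrl and 230 to 273 in Tgfbr2-cKO at 21 dpi. Ctrl and ADWA11 at 21 dpi stood above the other 4 libraries, and Tgfbr2-cKO was lowest on either day over all members. In fibroblast-type members it was lowest at 21 dpi but not at 7 dpi, where Ctrl, ADWA11 and Tgfbr2-cKO stood at 437, 402 and 467 CPM. In Tgfbr2-cKO at 21 dpi 79 of the 185 members held a Slc47a1 UMI, so this library is described by the rule rather than by Slc47a1. As background, Slc47a1 was detected in 6.62%, 4.90% and 0.289% of myeloid nuclei at 21 dpi (Ptprc and Csf1r both detected, under 2 fibroblast genes, median UMIs of 4732, 5363 and 5865 against 7786.5, 8974 and 10311 in members), and in 23.9%, 15.2% and 2.13% of the other gate nuclei.

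Pde11a was found in most members of each library. It was detected in 62.4%, 71.9% and 51.4% at 7 dpi and 75.3%, 86.6% and 77.3% at 21 dpi of members and in 0.738% to 1.56% of myeloid nuclei. Its levels were 298, 254 and 126 CPM at 7 dpi and 384, 522 and 411 CPM at 21 dpi, so that the 3 libraries at 21 dpi lay within 384 to 522 CPM. Slc47a2 followed Slc47a1, at 104, 87.7 and 56.1 CPM at 7 dpi and 236, 206 and 52.5 CPM at 21 dpi. Of members with a Slc47a2 UMI, 92.3%, 98.9% and 100% at 7 dpi and 97.9%, 98.7% and 96.3% at 21 dpi also held a Slc47a1 UMI. The converse was less frequent, since 1375 of the 2180 Slc47a1-detected members in Ctrl at 21 dpi also held Slc47a2. Both genes count towards the rule, so their overlap in members is partly set by the choice.

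Trdn and Npr3 were highest in Tgfbr2-cKO at 21 dpi. Trdn stood at 1.29, 4.96 and 0 CPM at 7 dpi and 26.8, 87.3 and 141 CPM at 21 dpi and was detected in 9.17%, 19.5% and 33.5% of members at 21 dpi. In the 37 members of Tgfbr2-cKO at 7 dpi Trdn had no UMI, where 3 UMIs would be 5.80 CPM. Npr3 stood at 72.7, 134 and 251 CPM at 7 dpi and 173, 149 and 584 CPM at 21 dpi. It was detected in 15.5% and 19.3% of the neurons of the Tgfbr2-cKO libraries at 7 and 21 dpi, in 23.9% of those of Ctrl at 21 dpi and in none of those of the other 3 libraries. In fibroblast-type members of Tgfbr2-cKO at 21 dpi Npr3 stood at 643 CPM. Fgf7 was lowest in Ctrl at 21 dpi, at 56.8, 110.1 and 101 CPM at 7 dpi and 39.5, 129.8 and 177 CPM at 21 dpi. Slc26a7 (276, 261 and 161 CPM at 7 dpi and 331, 205 and 158 CPM at 21 dpi) and Kcnk5 (113, 72.4 and 58.0 CPM at 7 dpi and 157, 154 and 88.9 CPM at 21 dpi) were higher in Ctrl than in Tgfbr2-cKO on either day over all members. Levels of Tgfbr2-cKO at 7 dpi, also those of Tgfbr2 and Pde11a above, may depend on the nuclei included. Npr3, for example, stood there at 251 CPM over all 37 members and at 445 CPM in the fibroblast-type ones.

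**Figure D1:**
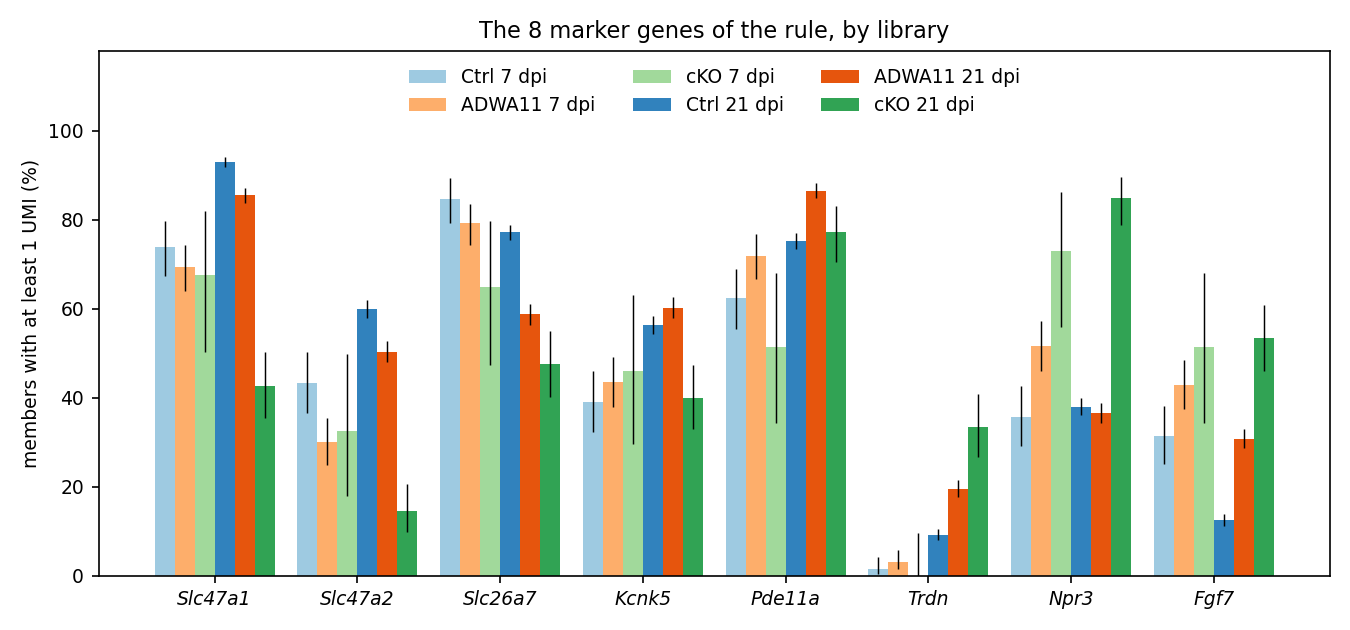
Percent of the member nuclei of each library with at least 1 UMI of each of the 8 marker genes, with exact 95% binomial intervals. Slc47a1 is detected in 93.0% of members in Ctrl and 42.7% in Tgfbr2-cKO at 21 dpi, while Trdn and Npr3 are highest in Tgfbr2-cKO at 21 dpi.

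The collagen genes of the rule differed between libraries although each member had at least 2 of the 4 fibroblast genes. Col1a2, a chain of type I collagen, stood at 2783, 2564 and 511 CPM at 7 dpi and 2816, 2025 and 592 CPM at 21 dpi, and Bicc1, an RNA-binding protein, at 1084, 1399 and 692 CPM at 7 dpi and 1067, 1102 and 1128 CPM at 21 dpi. The Tgfbr2-cKO libraries were thus lowest for Col1a2, whereas for Bicc1 Tgfbr2-cKO at 21 dpi lay among the rest. Col1a2 was also found outside fibroblasts, where it may be free RNA, in 41.2%, 33.1% and 2.84% of myeloid nuclei at 7 dpi and in 59.3%, 51.3% and 5.03% at 21 dpi. Bicc1 was found in 1.74% to 8.51% of them. Of the excluded genes, Slc13a4, a sulfate transporter of the meninges, was detected in 5.41% to 17.8% of members and Lamc3 in at most 0.946%, and the immune genes Ptprc and Csf1r in 2.70% to 18.1% and 3.44% to 13.5%.

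Members near the threshold were numerous. Exactly 3 of the 8 marker genes were detected in 105, 132 and 17 members at 7 dpi and in 813, 554 and 83 at 21 dpi, or 105 of 210 members in Ctrl at 7 dpi and 32.3% to 45.9% of them elsewhere. Just outside, 267, 282 and 46 nuclei at 7 dpi and 1010, 704 and 125 at 21 dpi met every other limit but held 2. The nuclei with 3 had median UMIs of 6655 in Ctrl and 9665 in Tgfbr2-cKO at 21 dpi, and those with 2 had 5319.5 and 9679. The median member held 3.5 to 4 of the marker genes and the most in any member was 8.

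Outside the rule, the matricellular gene Ccn3 led the genes that were higher in members. Genes were ranked by the median log2 ratio of members over the other gate nuclei in the 5 libraries with at least 50 members. Ccn3 led, with a median of 3.77 (3.30 when both sides were fibroblast-type nuclei), at 44.3, 65.2 and 40.6 CPM at 7 dpi and 60.8, 104 and 132 CPM at 21 dpi in members and 2.13, 4.79 and 5.24 CPM at 7 dpi and 10.7, 15.9 and 9.07 CPM at 21 dpi in the other gate nuclei. It was higher in members in each of the 6 libraries. The next included Galnt13, a glycosyltransferase (median 3.07), Slc5a6, a sodium-dependent vitamin transporter (2.68), Prmt8, an arginine methyltransferase (2.68), and Slc9b2, a sodium/proton exchanger (2.63). Gm5860, Gm765 and Gm6260 also ranked among the 5 highest, with medians of 3.28, 3.04 and 2.94.

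Slc4a10, a sodium-coupled bicarbonate transporter, was the most abundant of the leading genes. Its member levels were 3512, 3862 and 2188 CPM at 7 dpi and 5715, 5115 and 3653 CPM at 21 dpi, against 552, 492 and 498 CPM at 7 dpi and 1196, 1103 and 469.7 CPM at 21 dpi in the other gate nuclei. Every member value lay above every other-gate value. Chrm3, the M3 muscarinic acetylcholine receptor (median 2.43), Bche, an enzyme that hydrolyses choline esters (2.45), Slc26a2, a sulfate transporter (2.28), Tsc22d3, a glucocorticoid-induced gene (2.21), and Rspo3, which strengthens Wnt signalling (2.21), followed. The 20 leading genes had medians of 2.16 to 3.77, and 14.6% of the 16508 genes compared were higher and 24.1% lower in members in all 5 libraries.

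Several genes of the arachnoid and of leptomeningeal fibroblasts were lower in members. The rule left out nuclei with more than 1 of its excluded genes, among them Lama1, Lamc3, Slc22a6 and Slc13a4. Such nuclei stayed among those compared, so these directions are partly set by the choice. Slc6a13, a GABA and taurine transporter (median -5.96), and Slc6a20a, a proline transporter (-5.56), were lowest, and stayed so against other fibroblast-type nuclei (-6.42 and -5.99). Against these, 5 of 8 arachnoid genes were lower in every library compared and 1 was higher, with Ptgds, prostaglandin D synthase, at -2.68 and Trpm3 at -2.35. Of the 4 leptomeningeal genes measured, 3 were lower, namely Aldh1a2, which makes retinoic acid (-3.66), Slc7a11 (-2.73) and Rdh10 (-0.91). Of 6 dural genes 3 were higher and 0 lower, namely Ccn3, Fxyd5 (0.99) and Dpt (0.85). Over all 14403 genes of this restricted contrast, 11.3% were higher and 16.7% lower in all 5 libraries.

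Myofibroblast genes were lower in members than in other fibroblast-type nuclei, with 3 of 4 measured genes lower in each library compared. Postn, periostin, had a median of -2.33, Acta2, smooth muscle actin, -1.63 and Cthrc1 -1.18. Against all other gate nuclei 10 of 26 collagens were higher and 6 lower in all libraries compared. Among fibroblast-type nuclei they were lower more often than higher, with 11 of 26 lower and 3 higher. Col15a1 stood at -3.52 and Col4a6 at -3.08, while Col14a1 was higher at 1.46. Of 33 fibroblast transcription factors, 19 were higher and 4 lower against all other gate nuclei. Among fibroblast-type nuclei 11 were higher, among them Foxc2 (0.93), Tbx15 (0.85) and Foxd1 (0.80), and 9 lower, among them Meis1 (-3.05), Meis2 (-2.17) and Ebf3 (-2.14). Of 16 secreted Wnt and BMP genes 2 were higher and 7 lower, with Rspo3 at 1.88 and Wnt4 at -2.89. The list of transporters was divided, with 14 of 26 higher and 11 lower, and the higher ones include Slc47a1, Slc47a2 and Slc26a7, by which the members were chosen.

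When the gate nuclei were clustered without the 18 genes of the rule, the members did not fall into a common cluster. Most of them, 82.9%, lay in 5 clusters, which are given by number and leading genes because they were drawn from the same nuclei. Cluster 3, led by Vsx1, Slco4a1, Ccn3, Bche and Slc26a2, held 1545 members, and 86.7% of its nuclei met the rule. Cluster 0 (Prok2, Krt12, Trdn, Prg4 and Edar) held 1571, cluster 9 (Prss12, Fgf18, Ghr and Col8a1) 446, cluster 1 (Kif26b, Slc22a22, Eln, Hmga2 and Has2) 337 and cluster 18 (Ebf3, Crocc2, Akr1c19, Slc10a6 and Scn7a) 84. The rule was met by 56.4%, 37.4%, 17.7% and 28.0% of the nuclei of these 4 clusters. At a finer resolution 98.8% of the members of cluster 3 stayed together, and 62.8%, 93.0%, 79.5% and 100% of those of clusters 0, 9, 1 and 18. Cluster 2, led by Igha, Mmp12 and Mrc1, held 295 members and 31.8% called doublets, and was not of fibroblast type.

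The marker genes took different combinations in these clusters. Slc47a1 stood at 1620.1 CPM in the members of cluster 3, at 676 in cluster 0, 667 in cluster 9, 294 in cluster 1 and 24.0 in cluster 18, where it was detected in 15.5% of members. Slc47a2 had no UMI in cluster 18 and was highest in cluster 3, at 362 CPM. Pde11a was present in each, at 435, 589, 239, 297 and 519 CPM in the same order. Trdn was highest in clusters 18 and 0, at 148 and 93.8 CPM, and Npr3 in clusters 18 and 3, at 608 and 346 CPM. Fgf7 was highest in cluster 18, at 380.2 CPM, and lowest in cluster 3, at 23.6 CPM. Members without Slc47a1 and Slc47a2 must meet the rule through the other markers, so these levels are partly set by the choice.

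Matrix genes separated the clusters further. Col1a2 was lowest in cluster 18 (697 CPM) and highest in cluster 9 (5002 CPM), and Col8a1, a short-chain collagen, stood at 84.6 and 4622 CPM. Cluster 1 held the most Eln, elastin, at 586 CPM, with 1186 CPM of fibronectin (Fn1) and 199 CPM of Postn. Cluster 9 also carried Eln (491 CPM) and the growth hormone receptor Ghr (5779 CPM). In cluster 0 the metalloproteinase Mmp3 stood at 113 CPM, complement C3 at 85.4 and the chemokine Cxcl12 at 425. Cluster 18 held 1106 CPM of Cxcl12, 430.4 of the transcription factor Ebf3, 207 of Pparg, a nuclear receptor of fat cells, and 807 of the cystine transporter Slc7a11. Chrm3 was highest in cluster 3, at 2239 CPM against at most 657 in the other 4.

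The libraries drew on different clusters. At 7 dpi cluster 1 held 54.3% of the 210 Ctrl members, 59.9% of the 317 ADWA11 members and 32.4% of the 37 Tgfbr2-cKO members, and at 21 dpi at most 1.62%. Cluster 3 held 35.3%, 33.1% and 30.8% of the members at 21 dpi, so its part was much alike in the 3 conditions. Cluster 0 held 24.7% of Ctrl and 54.9% of ADWA11 members at 21 dpi. Cluster 9 held 18.5% of the Ctrl members at 21 dpi and at most 2.38% in any other library. Cluster 18 held 80 of the 185 Tgfbr2-cKO members at 21 dpi (43.2%) and 4 members elsewhere. Clusters 9 and 18 were nearly all of 1 library, and whether they reflect that library or a kind of fibroblast was not tested. Cluster 9 raised all 3 listed genes of the study's late inner fibroblasts of the lesion core, Fgf13, Cdh18 and Sema3c. It also raised 2 dural genes, while cluster 18 raised 1 late inner gene and 0 dural genes. Cluster 3 raised 4 dural and 2 arachnoid genes, and clusters 0 and 1 raised 0 dural genes.

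**Figure D2:**
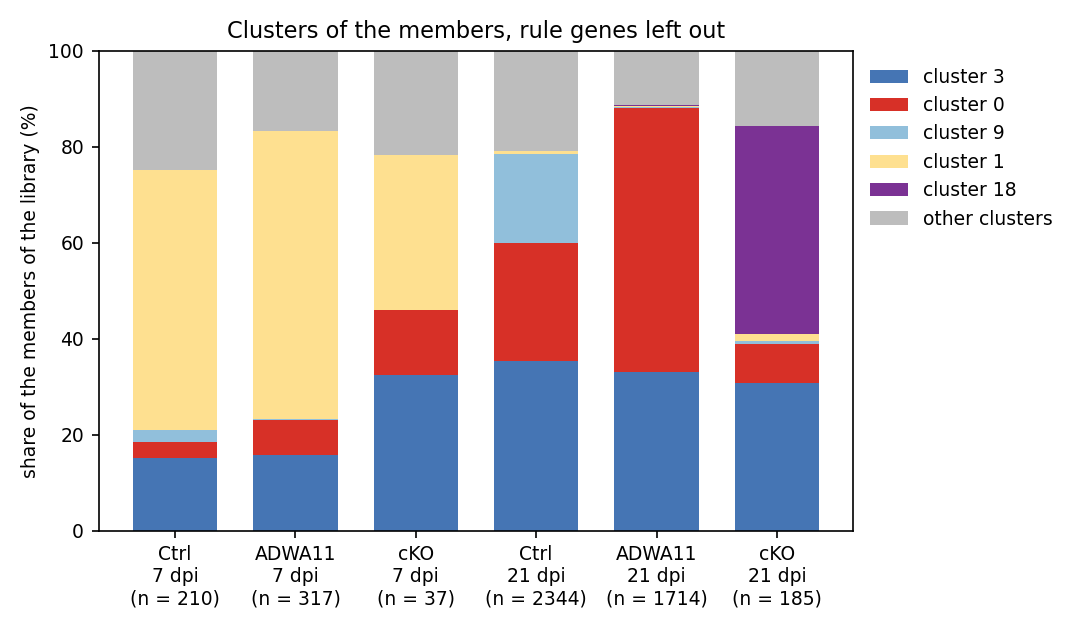
Share of each library's members (percent) in the 5 clusters with most members and in all others, from clusters drawn without the genes of the rule. Cluster 3 holds 30.8% to 35.3% in each library at 21 dpi, while cluster 1 holds 54.3% in Ctrl at 7 dpi and cluster 18 holds 43.2% in Tgfbr2-cKO at 21 dpi.

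Member nuclei took a larger share of the fibroblast gate at 21 dpi than at 7 dpi in each condition, and at 21 dpi the Tgfbr2-cKO library held the smallest share. Of the gate nuclei, 6.70% (5.85 to 7.64) in Ctrl, 8.07% (7.24 to 8.97) in ADWA11 and 4.97% (3.52 to 6.78) in Tgfbr2-cKO were members at 7 dpi. At 21 dpi the shares were 30.2% (29.2 to 31.3), 33.9% (32.6 to 35.3) and 14.6% (12.7 to 16.7), with exact binomial intervals. The 3 libraries at 21 dpi stood above the 3 at 7 dpi without overlap. Shares in nuclei called female and male, which come from different mice of the pool, were 30.1% and 34.2% in Ctrl, 32.1% and 37.3% in ADWA11 and 13.5% and 15.1% in Tgfbr2-cKO at 21 dpi.

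The share at 21 dpi over that at 7 dpi was 4.51-fold in Ctrl, 4.21-fold in ADWA11 and 2.95-fold in Tgfbr2-cKO, or log2 ratios of 2.17 (1.97 to 2.38), 2.07 (1.90 to 2.25) and 1.56 (1.04 to 2.11). Tgfbr2-cKO over Ctrl was -1.05 (-1.27 to -0.83) at 21 dpi and -0.43 (-0.98 to 0.08) at 7 dpi. The interval at 7 dpi includes 0, but it did not with at least 2 marker genes (-0.45, interval -0.81 to -0.11), from 2000 UMIs upward (-0.52) or over all passing barcodes (-2.96). It was -0.01 without nuclei with neuronal markers (6.81% against 6.87%), -0.12 in fibroblast-type clusters and 0.33 after thinning, so the result at 7 dpi depended on the setting. ADWA11 over Ctrl was 0.17 (0.08 to 0.26) at 21 dpi and 0.27 (0.01 to 0.53) at 7 dpi, both comparisons using the Ctrl libraries also set against Tgfbr2-cKO. At 21 dpi this small ratio turned to -0.10 when each nucleus was thinned to 2000 UMIs and to -0.52 when all 60729 barcodes passing the UMI and mitochondrial limits formed the denominator.

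Detection of Col1a2 in myeloid nuclei, given above, differed between libraries, and so did the gate itself. It took 39.6%, 36.0% and 6.86% of passing barcodes at 7 dpi and 64.2%, 39.9% and 19.96% at 21 dpi, and its part in the member share was not tested. Among fibroblast-type nuclei the member shares were 10.2%, 11.8% and 9.41% at 7 dpi and 45.3%, 47.6% and 21.3% at 21 dpi, in the same order. With Slc47a1 itself required, they were 28.1%, 29.0% and 6.25% of the gate at 21 dpi. Without cluster 18 the Tgfbr2-cKO share at 21 dpi was 10.6%. Members of cluster 3 and of cluster 0 can also be set against the gate through their clusters, which took 12.2% and 12.4% of gate nuclei in Ctrl, 12.8% and 34.2% in ADWA11 and 5.62% and 1.90% in Tgfbr2-cKO at 21 dpi.

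**Figure D3:**
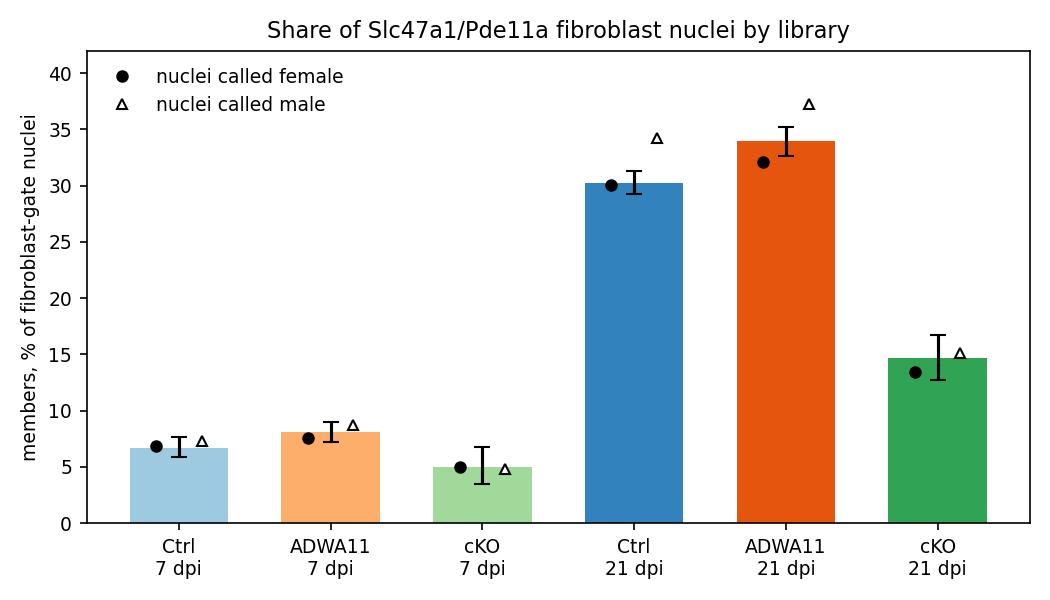
Member nuclei as a percent of fibroblast-gate nuclei in each library, as bars with exact 95% binomial intervals, and in nuclei called female (circles) and male (triangles). The 21 dpi bars stand at 30.2% in Ctrl, 33.9% in ADWA11 and 14.6% in Tgfbr2-cKO, above the 4.97% to 8.07% at 7 dpi.

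From 7 to 21 dpi in Ctrl, myofibroblast and proliferation genes were lower in members, and the Slc47a exporters and some proteoglycans, among them Lum and Prelp, were higher. Of 13820 genes with at least 50 UMIs over both libraries, 12.9% were at least 2-fold higher and 3.09% at least 2-fold lower at 21 dpi, a limit that genes of the 21 dpi library meet more easily because it held 2344 members against 210. In fibroblast-type members 11.3% and 3.46% of 12957 were. Slc47a1 had a log2 ratio of 1.33 (1.24 to 1.42), Slc47a2 of 1.19 (1.00 to 1.38), Npr3 of 1.25 (1.02 to 1.48) and Trdn of 4.38 (2.82 to 6.66) with 3 UMIs at 7 dpi. The other 4 marker genes differed by under 2-fold, with Pde11a at 0.36 and Fgf7 at -0.52. All are genes by which members were chosen, so these ratios are partly set by the choice. Within cluster 3 alone Slc47a1 stood at 1069 CPM in the 32 Ctrl members at 7 dpi and at 1679 in the 827 at 21 dpi.

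Each of the 4 myofibroblast genes measured was at least 2-fold lower at 21 dpi in Ctrl. Cluster 1, in which all 5 listed myofibroblast genes were raised, held 54.3% of Ctrl members at 7 dpi and 0.555% at 21 dpi. Its part in these differences was not tested. Postn stood at 242, 83.0 and 3.87 CPM at 7 dpi and 31.1, 19.3 and 13.8 CPM at 21 dpi, with a log2 ratio of -2.96 (-3.13 to -2.79) between the Ctrl libraries. Fn1 stood at 1161, 1095 and 304 CPM at 7 dpi and 519, 403 and 273 CPM at 21 dpi, and its Ctrl ratio was -1.16. The 4 proliferation genes measured were lower too, with Mki67, a protein of dividing nuclei, at 28.4 and 4.76 CPM and Top2a, a topoisomerase of dividing cells, at 30.96 and 7.81 CPM at 7 and 21 dpi. In Tgfbr2-cKO, with 37 members at 7 dpi, Postn was low on either day and is given as values only.

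Of 11 proteoglycan genes, 5 were at least 2-fold higher at 21 dpi in Ctrl and 1 lower. Lum, lumican, a collagen-binding proteoglycan, stood at 18.5, 32.5 and 13.5 CPM at 7 dpi and 83.4, 68.9 and 42.4 CPM at 21 dpi with a Ctrl ratio of 2.17 (1.74 to 2.64), and Prelp had a ratio of 2.10. Vcan, versican, a large proteoglycan of provisional matrix, went the other way at 549.5, 470.0 and 67.7 CPM at 7 dpi and 112, 31.6 and 31.8 CPM at 21 dpi with a ratio of -2.30 (-2.40 to -2.20). Mgp, matrix Gla protein, an inhibitor of calcification, stood at 147, 124 and 56.1 CPM at 7 dpi and 464, 292 and 90.3 CPM at 21 dpi. Collagens as a group differed less over time in Ctrl, with 0 of 26 at least 2-fold higher, 2 lower and a median of -0.32 against 0.09 over all genes.

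Among the genes with the largest differences over time in Ctrl, Slc22a22 (-3.80), Spock3 (-3.31), the Wnt agonist Rspo2 (-3.03), Frem1 (-3.02) and Tmem132c (-3.01) were lower at 21 dpi. The highest were Igha (8.48, 1 UMI at 7 dpi), Grin2b (6.09), Grin2a (6.02), Gm15886 (5.88) and Igkc (5.66), which are genes of plasma cells and neurons besides Gm15886. In fibroblast-type members their ratios were 6.31, 1.00, 2.29, 5.72 and 4.71. The 6 neuronal markers summed to 4.30 CPM in Ctrl at 7 dpi, with Slc17a7 and Gad1 at 0, and to 54.0 at 21 dpi, and the 6 lymphocyte markers to 1.29, with Cd8a, Cd4 and Cd79a at 0, and 19.2. In fibroblast-type members the neuronal sums were 4.50 and 4.42 CPM and the lymphocyte sums 1.00 and 5.65. The 4 astrocyte markers summed to 8.17 and 106 CPM (5.50 and 35.0 in fibroblast-type members), with 3 of 4 higher. The oligodendrocyte markers summed to 146 and 58.3, with 3 of 4 lower, but to 13.0 and 19.8 in fibroblast-type members. Over all members the 3 neuronal markers measured and both lymphocyte markers measured were at least 2-fold higher, and their part in the result was not tested. Of the 5 osteoblast markers measured 3 were higher (Bglap, Ibsp and Sp7).

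In ADWA11 members the same comparison over time gave 10.3% of 13664 genes at least 2-fold higher and 4.3% lower, and 9.45% and 4.17% of 13150 in fibroblast-type members. Slc47a1 (1.29, interval 1.22 to 1.37), Slc47a2 (1.23), Pde11a (1.04), Kcnk5 (1.09) and Trdn (4.14) were at least 2-fold higher at 21 dpi. Since members were chosen by these genes, their ratios are partly set by the choice. Within cluster 3 Slc47a2 had a ratio of -0.23, so its direction depended on the clusters included. Postn (-2.10) and Fn1 (-1.44) were lower. The 5 lowest were Slc22a22 (-4.29), Spock3 (-4.03), Opcml (-3.97), the hyaluronan synthase Has2 (-3.93) and Vcan (-3.90). For Opcml the ratio was -1.99 in fibroblast-type members, and -1.002 in female and -5.67 in male nuclei. The oligodendrocyte precursor markers summed to 307 CPM at 7 dpi and 32.9 at 21 dpi over all ADWA11 members and the neuronal markers to 21.6 and 2.78. In fibroblast-type members these sums were 53.7 and 18.9, and 6.39 and 1.06. Their part in the result was not tested. Collagens were lower in 8 of 25 and higher in 1 (Col24a1), with a median of -0.74 against 0.05 over all genes.

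Complement C3 and signals to lymphocytes were among the genes higher at 21 dpi in ADWA11 members. C3, the central complement component, stood at 0.430, 0.248 and 0 CPM at 7 dpi and 18.7, 86.9 and 10.1 CPM at 21 dpi, with 1 UMI at 7 dpi and 1471 at 21 dpi in ADWA11 and a log2 ratio of 8.45 (5.97 to 13.76). In the other gate nuclei of ADWA11 C3 stood at 1.24 CPM at 7 dpi and 126 CPM at 21 dpi. Of 11 lymphocyte signal genes measured 7 were at least 2-fold higher and 0 lower, with a median of 1.14. Cd80, a T cell costimulator, stood at 68.8, 46.1 and 48.4 CPM at 7 dpi and 128, 313 and 95.4 CPM at 21 dpi, and Il7, a survival factor for lymphocytes, at 3.01, 1.49 and 0 CPM at 7 dpi and 3.50, 9.93 and 6.45 CPM at 21 dpi. The lymphocyte markers summed to 2.48 and 46.1 CPM in ADWA11 members (2.39 and 10.8 in fibroblast-type members), Cd3e being at 0 at 7 dpi, and their part in the result was not tested. Igkc (7.82), Gm15987 (7.14), Skap1 of T cells (6.52) and Clec2g (6.19) completed the 5 highest. Within cluster 3 Skap1 had 12 UMIs at 21 dpi and 0 at 7 dpi, and Clec2g 13 and 0.

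Between Tgfbr2-cKO and Ctrl at 21 dpi, Col1a1, Col1a2, Col3a1, Col8a1 and the Slc47a exporters were lower in Tgfbr2-cKO members, and Npr3, Trdn, Fgf7, Ebf3 and Slc7a11 were higher. The comparison bears on the question of how these fibroblasts differ when fibroblasts lack the TGFβ receptor. Of 13901 genes, 6.67% were at least 2-fold higher and 8.06% at least 2-fold lower, and in fibroblast-type members 5.74% and 7.46% of 13012. The rule's 8 marker genes included 3 higher and 3 lower by 2-fold. Slc47a1 had a log2 ratio of -2.05 (-2.18 to -1.93), with -2.72 in female and -1.503 in male nuclei, and Slc47a2 of -2.17 (-2.45 to -1.90). Within cluster 3 these were -1.06 and -0.99.

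Slc26a7 was also lower (-1.07), Kcnk5 had a ratio of -0.82 and Pde11a one of 0.10 (-0.00 to 0.20). Npr3 (1.76, interval 1.67 to 1.85), Trdn (2.40, interval 2.19 to 2.60) and Fgf7 (2.17, interval 1.99 to 2.34) were higher in Tgfbr2-cKO, and were 1.14, 1.26 and 1.53 within cluster 3. All are genes by which members were chosen, and where fewer members hold Slc47a1 and Slc47a2 the rule must be met through the other markers, so these ratios are partly set by the choice. Of the 34 genes of natriuretic peptide, cGMP and cAMP signalling measured, 10 were at least 2-fold higher and 1 lower, with a median of 0.44 against -0.04 over all genes. The lower gene was the adenylate cyclase Adcy7 (-4.37), and Npr3, a marker gene of the rule, was among the higher ones. Pde11a, also in this list, is a marker gene of the rule too. The counts are over all members, in which the neuronal markers summed to 433 CPM in Tgfbr2-cKO and 54.0 in Ctrl. The part of neuronal RNA in them was not tested.

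Collagens were lower in 10 of 26 and higher in 2, with a median log2 ratio of -0.72 against -0.04 over all genes. Col1a1, a chain of type I collagen, stood at 1293, 931 and 284 CPM at 7 dpi and 878, 639 and 202 CPM at 21 dpi in members, so the Tgfbr2-cKO library was lowest on each day. Its ratio at 21 dpi was -2.12 (-2.26 to -1.99) over all members and -0.82 within cluster 3. In the other gate nuclei Col1a1 stood at 1056 CPM in Ctrl and 74.4 CPM in Tgfbr2-cKO at 21 dpi. Col8a1 stood at 2406, 1178 and 292 CPM at 7 dpi and 1891, 593 and 218 CPM at 21 dpi, with a ratio of -3.12 (-3.25 to -2.99) and -1.57 within cluster 3. Col3a1 had a ratio of -2.13 and Col1a2 of -2.25, and both are rule genes, as is Col5a2, which is also in this list. The higher ones were Col23a1 (1.58) and Col24a1 (1.34). Col1a2 outside fibroblasts differed between these libraries in the same direction, being found in 59.3% of Ctrl and 5.03% of Tgfbr2-cKO myeloid nuclei. It may be free RNA, and its part in the result was not tested.

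**Figure D4:**
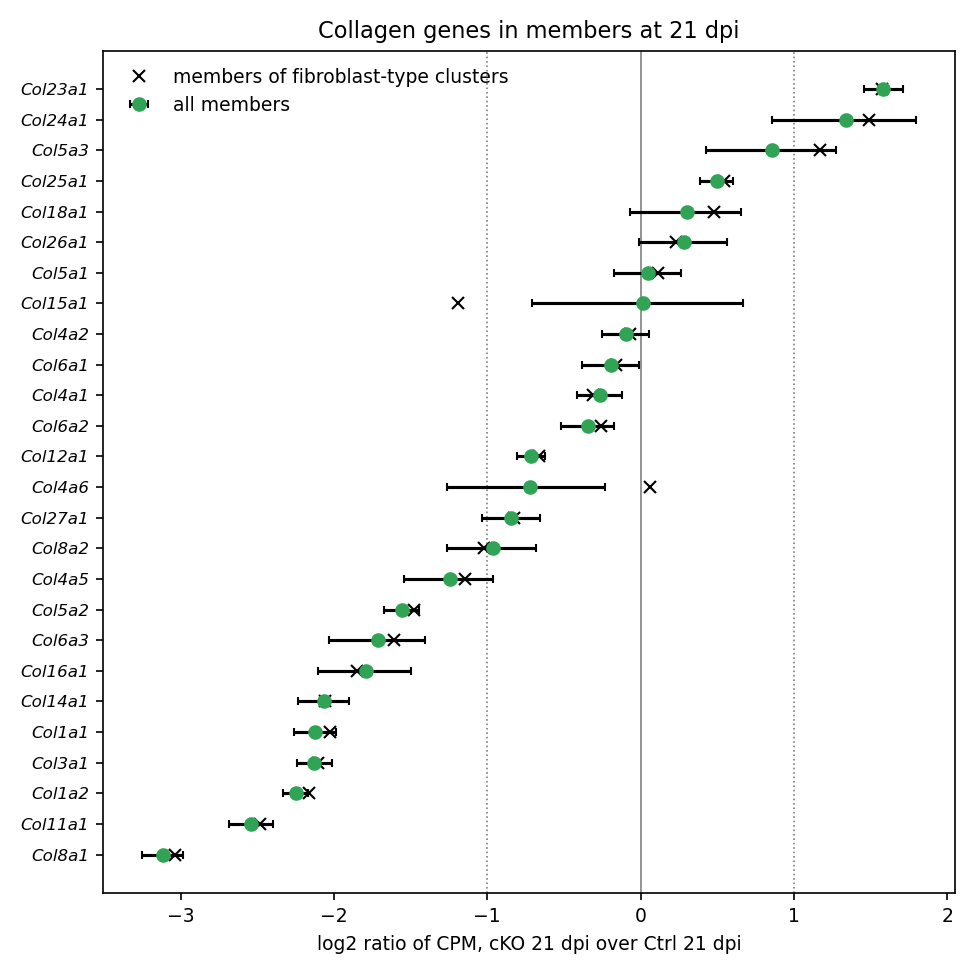
Log2 ratio of Tgfbr2-cKO over Ctrl members at 21 dpi for each collagen gene measured, with 95% counting intervals over all members (circles) and as a value without interval for members of fibroblast-type clusters (crosses), with dotted lines at 2-fold. Most points lie below 0, Col8a1 at -3.12 and Col1a1 at -2.12, and 2 genes, Col23a1 and Col24a1, lie above 1.

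TGFβ pathway genes included 6 of 27 at least 2-fold lower and 2 higher, with a median of -0.26. Tnc, tenascin C, had 4 UMIs in Tgfbr2-cKO and 1677 in Ctrl, a ratio of -5.51 (-7.39 to -4.15), and stood at 92.9, 69.2 and 1.93 CPM at 7 dpi and 84.0, 16.6 and 1.84 CPM at 21 dpi. In the other fibroblast-type nuclei the Tnc ratio was -4.25. Ltbp1, which binds latent TGFβ, stood at 155, 73.4 and 52.2 CPM at 7 dpi and 49.0, 10.9 and 9.21 CPM at 21 dpi and had a ratio of -2.41. Nox4, an oxidase induced by TGFβ, stood at 246, 157 and 27.1 CPM at 7 dpi and 283, 174 and 67.7 CPM at 21 dpi and had a ratio of -2.06. Tgfbr2-cKO was thus lowest for these 3 genes at 21 dpi, with ADWA11 close to it for Ltbp1.

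Ebf3, a transcription factor, had the largest higher ratio among the genes named by the rule for large differences. It stood at 7.74, 1.74 and 5.80 CPM at 7 dpi and 3.15, 10.3 and 194 CPM at 21 dpi, with 422 UMIs in Tgfbr2-cKO and 63 in Ctrl at 21 dpi and a ratio of 5.95 (5.56 to 6.35). In the other fibroblast-type nuclei the Ebf3 ratio was 5.49. The next were Gm20125 (5.34), Psd4 (4.79), Dpp10 (4.74) and the aldo-keto reductase Akr1c19 (4.63). Ebf3, Gm20125, Psd4 and Akr1c19 lead cluster 18, which was nearly all of this library. Other genes of the lists that were higher were Ebf1 (318, 649.9 and 418 CPM at 7 dpi and 357, 682 and 1471 CPM at 21 dpi), Pparg (7.31, 11.2 and 75.4 CPM at 7 dpi and 11.5, 22.5 and 100.0 CPM at 21 dpi) and Slc7a11 (71.4, 129 and 149 CPM at 7 dpi and 32.9, 27.2 and 686 CPM at 21 dpi), with ratios of 2.04, 3.12 and 4.38. Without the members of cluster 18 these 3 ratios were 0.50, 0.39 and 4.19, and that of Ebf3 2.39. In fibroblast-type members, cluster 18 included, Pparg had 200 UMIs in Tgfbr2-cKO and 30 in Ctrl, a ratio of 5.91 (5.35 to 6.51).

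Besides Tnc, the lowest ratios were those of Gm16000 (-4.85), Dnajc5b (-4.84), Tnmd (-4.70) and the macrophage gene Adgre1 (-4.57), each with 1 UMI in Tgfbr2-cKO, so that a single molecule sets the value. Within cluster 3 Tnmd had 1 UMI in Tgfbr2-cKO and 10 in Ctrl, and Adgre1 0 and 33. The 6 neuronal markers summed to 433 CPM in Tgfbr2-cKO and 54.0 in Ctrl members (55.7 and 4.42 in fibroblast-type members), and all 4 measured were at least 2-fold higher, as were all 4 oligodendrocyte markers (136 against 58.3 CPM). Astrocyte markers summed to 244 against 106 CPM (139 against 35.0 in fibroblast-type members), with 2 of 4 higher and 1 lower. The 7 myeloid markers summed to 79.7 against 144 CPM, with 4 of 6 lower, and the 5 endothelial markers to 123 against 213, with 3 of 5 lower. Their part in the results was not tested. For Dpp10, a gene also of neurons, the ratio was 3.83 in fibroblast-type members, 2.34 in female and 0.91 in male nuclei. The female and male nuclei held 39 and 116 of its 1732 UMIs in Tgfbr2-cKO.

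Lymphocyte signal genes differed in either direction in Tgfbr2-cKO, with 3 of 11 higher and 2 lower. Cxcl12 stood at 91.2, 216 and 110.3 CPM at 7 dpi and 151, 375 and 569 CPM at 21 dpi, with a ratio of 1.91 (1.81 to 2.01) over all members and -0.24 within cluster 3. Vcam1, an adhesion molecule for leukocytes, had 1.67 over all members, -1.97 within cluster 3 and -0.50 without cluster 18. The intervals within cluster 3 include 0 for both genes (-0.64 to 0.13 for Cxcl12 and -7.31 to 0.58 for Vcam1, on 1 UMI). Il33, an alarmin, was lower, at 67.7 against 170.2 CPM. Ccn3, the leading gene outside the rule, was higher in Tgfbr2-cKO, with a ratio of 1.12.

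**Figure D5:**
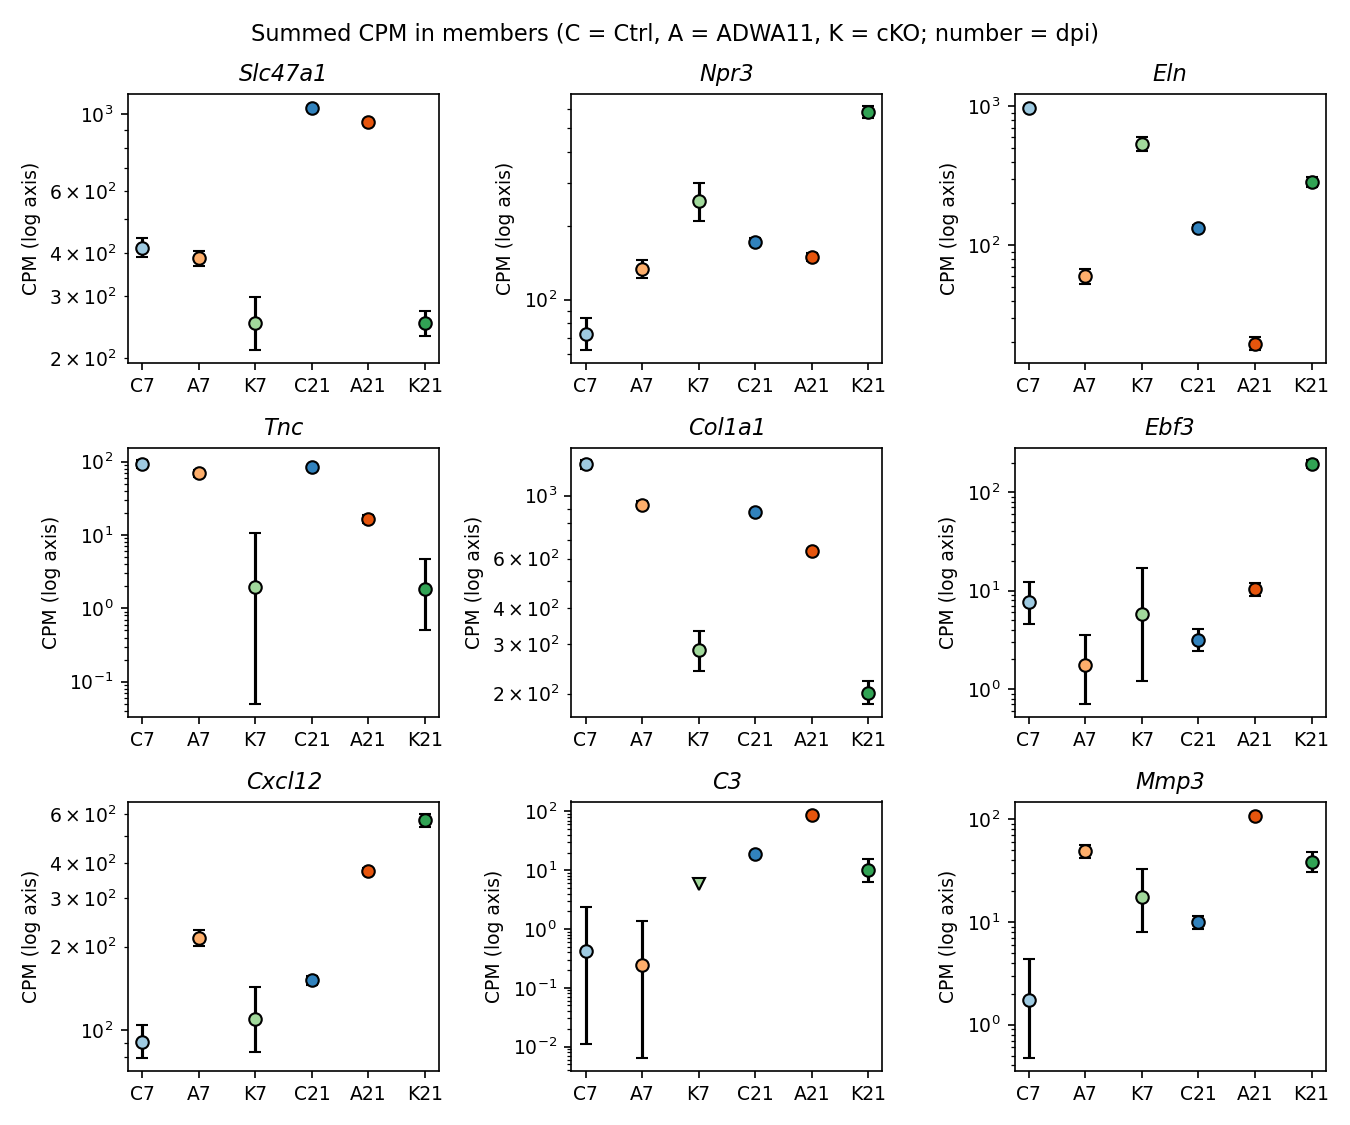
Levels of 9 genes in member nuclei of each library, as summed UMIs in CPM (log scale) with 95% Poisson intervals, libraries without a UMI being drawn as a downward triangle at the 3-UMI floor. Ebf3 reaches 194 CPM in Tgfbr2-cKO at 21 dpi, Mmp3 is highest in ADWA11 at 21 dpi (108 CPM) and over all members Eln is highest in Ctrl at 7 dpi (968 CPM), though not in fibroblast-type members.

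Between ADWA11 and Ctrl at 21 dpi the Slc47a exporters were close, Trdn, Fgf7, Mmp3, Ccl7 and Cxcl1 were higher in ADWA11 members and Col8a1, Ltbp1 and Tnc were lower. The question is how these fibroblasts differ when αvβ8 is blocked, and the Ctrl library is the one also set against Tgfbr2-cKO. Of 15085 genes, 2.77% were at least 2-fold higher and 4.74% lower, and in fibroblast-type members 2.73% and 1.99% of 14253. Slc47a1 had a ratio of -0.14 (-0.17 to -0.11), Slc47a2 of -0.20, Pde11a of 0.44, Npr3 of -0.21, Kcnk5 of -0.02 and Slc26a7 of -0.69. The small Slc47a1 ratio was 0.16 in female nuclei, opposite in sign to the ratio over all members. The 2 marker genes past 2-fold were Trdn (1.70, interval 1.56 to 1.85) and Fgf7 (1.72, interval 1.60 to 1.84). For Fgf7 the ratio was 0.30 in female and 2.75 in male nuclei, so it rested mostly on nuclei of the male mice. The ratios of all marker genes are partly set by the choice of members.

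Ccl7, Cxcl1 and Mmp3 were among the leading higher genes. Mmp3, stromelysin, stood at 1.72, 49.1 and 17.4 CPM at 7 dpi and 9.96, 108 and 38.7 CPM at 21 dpi, with a ratio of 3.44 (3.23 to 3.66) that was 2.57 within cluster 3 and 3.16 within cluster 0. In the other gate nuclei Mmp3 stood at 22.8 CPM in Ctrl and 196 CPM in ADWA11 at 21 dpi. Ccl7, a monocyte chemokine, had 105 UMIs in ADWA11 and 6 in Ctrl members (ratio 4.37), and Cxcl1, a neutrophil chemokine, 225 and 15 (4.15). Cluster 0 held 91 and 201 of these ADWA11 UMIs, and within cluster 3 Ccl7 had 4 and 0 UMIs and Cxcl1 3 and 3. Gm17268 (3.81) and the homeobox gene Lhx8 (3.47) were the other two. Of 13 lymphocyte signal genes 5 were at least 2-fold higher and 0 lower, with a median of 0.82 against 0.01 over all genes. They were Cxcl12 (1.31, interval 1.25 to 1.37), Cd80 (1.30), Il7, Tnfsf13b and Ccl2 (1.89). Within cluster 3 the Cxcl12 ratio was 0.48 and within cluster 0 it was 0.97, both under 2-fold, while cluster 0 held more of the ADWA11 members.

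Collagens were lower in 7 of 26 and higher in 2, with a median of -0.45 against 0.01. Col8a1 stood at 593 CPM in ADWA11 and 1891 in Ctrl, with ratios of -1.67 (-1.71 to -1.64) over all members, -0.97 in female and -2.19 in male nuclei. Cluster 9, which has Col8a1 among its leading genes, held 434 Ctrl and 5 ADWA11 members at 21 dpi. Its part in this ratio was not tested. Col24a1 was higher over all members (2.74), while cluster 3 held 2 and 11 UMIs of it (-2.03, interval -5.25 to 0.16). Of 27 TGFβ pathway genes 3 were at least 2-fold lower and 0 higher, namely Ltbp1 (-2.17), Tnc (-2.34) and Ccn2. Vcan was lower as well (-1.83). Ebf3, which was far higher in Tgfbr2-cKO, stood at 10.3 CPM in ADWA11 against 3.15 in Ctrl (1.71).

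Over all members the lowest ratios included genes of glia and neurons. Bcas1, an oligodendrocyte gene, had 3 UMIs in ADWA11 members and a ratio of -7.50, followed by 9530059O14Rik (-6.65), Sphkap (-6.44), Slc24a2 (-5.97) and Syt1 (-5.89). In fibroblast-type members these were -4.08, -3.74, -2.53, -1.75 and -1.60. Ptprt, a receptor tyrosine phosphatase, had the lowest ratio of the genes named in fibroblast-type members, -4.71 on 153 and 4501 UMIs, and -4.16 over all members, followed by Fxyd6 (-4.18) and Ephb1 (-4.17). The summed neuronal markers stood at 2.78 CPM in ADWA11 and 54.0 in Ctrl members, oligodendrocyte markers at 10.9 and 58.3, oligodendrocyte precursor markers at 32.9 and 206 and astrocyte markers at 27.5 and 106. In fibroblast-type members these sums were closer, at 1.06 and 4.42, 7.34 and 19.8, 18.9 and 22.9, and 13.4 and 35.0. Over all members 3 of 3, 4 of 4, 4 of 4 and 3 of 4 measured genes of these lists were at least 2-fold lower. All 4 lymphocyte markers measured were higher, and 2 of 5 mural markers were lower at 56.0 against 74.4 CPM. Myeloid markers summed to 236 against 144 CPM (195 against 108 in fibroblast-type members), with 2 of 6 higher and 1 lower, and Ptprc was detected in 18.1% of ADWA11 and 11.3% of Ctrl members. Their part in the result was not tested.

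At 7 dpi Eln was lower and Mmp3 higher in ADWA11 than in Ctrl members. The other gate nuclei differed in the same directions, with Eln at 759 CPM in Ctrl and 43.0 in ADWA11 and Mmp3 at 7.56 and 92.5. Of 9974 genes 2.94% were at least 2-fold higher and 1.66% lower in ADWA11, and in fibroblast-type members 2.71% and 1.24% of 9513. None of the 7 marker genes measured passed 2-fold, Fgf7 at 0.96 and Npr3 at 0.88 being the largest. Eln, the elastic fibre protein, stood at 968, 60.0 and 536 CPM at 7 dpi and 134, 19.6 and 286 CPM at 21 dpi, and in fibroblast-type members at 7 dpi at 1106, 61.5 and 1209 CPM. Its ratio at 7 dpi was -4.01 (-4.21 to -3.82), with -3.82 in female and -4.04 in male nuclei, and -4.17 in fibroblast-type members. Within cluster 1, which held most members at 7 dpi, Eln stood at 1699.9 CPM in the 114 Ctrl members and 74.9 in the 190 ADWA11 members, and within cluster 3 at 26.1 and 13.1 CPM with 8 and 6 UMIs. At the finer resolution a cluster led by Eln held 42 Ctrl and 8 ADWA11 members at 7 dpi. Another, led by Plagl1 and Slc22a22 among others, held 72 and 180, and the part of this split was not tested. The other lowest genes were Lama3, a laminin chain (-2.60), Ptprt (-2.35), Plcg2 (-2.32) and Inpp5d (-2.11), the last 2 being genes of immune cells.

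Mmp3 had 198 UMIs in ADWA11 and 4 in Ctrl members at 7 dpi, a ratio of 4.83 (3.46 to 6.72). Grin2a, a neuronal glutamate receptor (5.36, with 2 UMIs in Ctrl), Cd36, a fatty acid transporter (2.94), Ptchd4 (2.36) and Id3, an inhibitor of basic helix-loop-helix factors (2.35), were the other highest. Cxcl12 had a ratio of 1.24. The myofibroblast genes went in different directions, with Cthrc1 at 1.16 and Postn at -1.54. Ltbp1 (-1.08) was the only gene of 26 in the TGFβ pathway list past 2-fold, and of 25 collagens 2 were lower, Col8a1 (-1.03) and Col4a6, and 1 higher. All 3 oligodendrocyte markers measured were at least 2-fold lower in ADWA11 over all members (19.1 against 146 CPM summed). In fibroblast-type members the sums went the other way, at 18.4 CPM in ADWA11 and 13.0 in Ctrl. The part of these markers in the result was not tested.

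The 37 Tgfbr2-cKO members at 7 dpi were too few for a comparison and carried the most neuronal RNA, 2768 CPM over the 6 markers (170.3 in the 32 fibroblast-type members). Their Col1a1, Col8a1, Tnc and Nox4 levels of 284, 292, 1.93 and 27.1 CPM stood below those of the other 2 libraries at 7 dpi. Slc7a11 and Pparg, at 149 and 75.4 CPM, stood above them. No C3 UMI was found, and the 3-UMI floor of this library is 5.80 CPM.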

How the data were processed

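Counts were deposited by the authors as UMI matrices, 1 for each of the 6 libraries (Chromium 3′ v3.1 chemistry, mm10, 32285 genes). Cell Ranger is given as version 7.2.0 in the matrix headers and 7.1.0 in the labels. The study removed nuclei in the 2.5-percentile tails and doublet clusters in its own analysis, and neither step was applied to the matrices used here. Samples were grouped by the condition and day in the labels, and each group was 1 library.

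Members and gene lists were chosen with earlier results of these data known. UMIs were summed over members per library and divided by the non-mitochondrial total (CPM) with exact Poisson 95% intervals. Ratios between libraries with at least 50 members carry exact conditional binomial 95% intervals, and shares exact Clopper-Pearson intervals. A gene counted as different at 2-fold or more (log2 ratio of at least 1 or at most -1), with at least 50 UMIs over both libraries; 7 share and 5 gene-level comparisons were made, and a gene without a UMI was set at the floor of 3 UMIs, with no value given where that floor reversed the direction of the UMIs seen. The intervals were checked on simulated counts. Free RNA and PCR copies are not independent molecules, and the intervals cover counting error only.

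The 18 genes of the rule were named. Outside it, the 20 genes with the largest and the 10 with the lowest median ratio of members over other gate nuclei (at least 20 CPM) were ranked. Only part of these 20 is named. Per comparison, the 5 genes in each direction with the largest ratio were drawn on. These had at least 100 UMIs, UMIs in at least 20 nuclei of the higher library and the same sign in nuclei called female and male (from Xist and Y-linked genes). Genes of lists for transporters, natriuretic peptide and cyclic nucleotide signalling, TGFβ, collagens, proteoglycans, Wnt and BMP signals, transcription factors, lymphocyte signals, fibroblast layers and other cell types were named besides. Doublets were scored per library by simulation and the top 0.8% per 1000 barcodes called. Gate nuclei were clustered (Leiden, 2000 variable genes without the rule's 18, 30 components, 20 neighbours, resolution 0.5 and, as an alternative, 1.0). Alternatives covered thinning to 2000 UMIs, other marker numbers, denominators, doublets, neuron-marked nuclei, the sex of the nuclei, mean CPM per nucleus, the 5 top nuclei of a gene and edgeR's TMM factors, and, chosen after seeing the data, fibroblast-type clusters, clusters 3 and 0, removal of cluster 18 and detection of Slc47a1. Gene positions were taken from the GENCODE annotation of mm10. Python 3.11.15, numpy 2.4.6, scipy 1.17.1, pandas 2.3.3, scikit-learn 1.9.0, igraph 0.11.9, matplotlib 3.10.9, R 4.3.3 and edgeR 4.0.16 were used.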

Additional observations from a re-analysis of the deposited data

Results flagged for a closer look

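Some genes were at least 2-fold higher in one condition or day and at least 2-fold lower in the other, over all members. None of these differences between effects was tested, since each effect rests on 1 library a side, and comparisons over time or between conditions share libraries.

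From 7 to 21 dpi the log2 ratio of Ebf3 was -1.29 in Ctrl and 2.58 in ADWA11, with 18 and 63 UMIs in Ctrl, and in fibroblast-type members it was 3.05 in ADWA11, while Ctrl held 0 UMIs at 7 dpi and 17 at 21 dpi. The ratio of the potassium channel gene Kcnd2 was 2.67 in Ctrl and -1.80 in ADWA11, that of the calcium release channel Ryr2 1.51 and -2.28, and that of the synaptic gene Syt1 4.17 and -4.22. In fibroblast-type members Kcnd2 stood at 0.10 and -0.98 and Ryr2 at -0.78 and -2.44, so that over these members neither had opposite 2-fold ratios.

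Between ADWA11 and Ctrl the ratio of Dkk2, a Wnt inhibitor, was 1.08 at 7 dpi and -1.29 at 21 dpi, and that of the transcription factor Meis2 2.18 and -1.09. In fibroblast-type members these were 1.21 and -0.95 for Dkk2 and 2.40 and -0.61 for Meis2. Kcnd2 had 1.77 and -2.70, Ptprz1, a gene of oligodendrocyte precursors, 1.19 and -1.68, and Syt1 2.498 and -5.89. In fibroblast-type members Kcnd2 stood at 1.03 and -0.05, and Ptprz1 at 0.13 at 21 dpi, so that neither had opposite 2-fold ratios there. Neuronal markers summed to 4.30 and 21.6 CPM in Ctrl and ADWA11 members at 7 dpi and to 54.0 and 2.78 CPM at 21 dpi. In fibroblast-type members these sums were 4.50 and 6.39 CPM, and 4.42 and 1.06 CPM. The part of neuronal markers in the values of Kcnd2, Ptprz1 and Syt1 was not tested.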

How the results depend on the processing

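No paired analysis was run, because each group was 1 library and its nuclei called female and male came from 1 pool. Of 98 recomputed ratios of member shares 73 moved by less than their counting interval and 3 changed sign. Thinning to 2000 UMIs gave log2 share ratios of -1.38 for Tgfbr2-cKO over Ctrl at 21 dpi, 0.33 against -0.43 at 7 dpi (11 Tgfbr2-cKO members), -0.10 for ADWA11 over Ctrl at 21 dpi, and 3.02 and 2.64 for 21 over 7 dpi in Ctrl and ADWA11. With at least 4 markers, Tgfbr2-cKO over Ctrl at 21 dpi was -1.29 and the ratios over time were 2.56 (Ctrl) and 2.29 (ADWA11), and with at least 2 they were -0.82, 1.51 and 1.65, with 0.00186 for ADWA11 over Ctrl at 7 dpi. Over all passing barcodes the values were -2.73 and -2.96 for Tgfbr2-cKO over Ctrl at 21 and 7 dpi, -0.52 for ADWA11 over Ctrl at 21 dpi, and 2.87 (Ctrl) and 3.101 (Tgfbr2-cKO) over time. With Slc47a1 required they were -2.17 and 0.0463 for Tgfbr2-cKO and ADWA11 over Ctrl at 21 dpi and 2.51, 2.37 and 0.90 over time in Ctrl, ADWA11 and Tgfbr2-cKO. Without cluster 18 Tgfbr2-cKO over Ctrl at 21 dpi was -1.51, and ADWA11 over Ctrl was 0.0692 in fibroblast-type clusters and 0.0556 from 2000 UMIs upward.

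Counts of genes at least 2-fold different moved with the nuclei included and with the UMI minimum, and the cause was not tested for the nuclei. For Tgfbr2-cKO over Ctrl at 21 dpi the count of 2047 became 1329 in male nuclei, 1128 in cluster 3, 3381 without the 5 top nuclei of each gene, and 971 and 4837 at minimums of 200 and 1 UMIs. For ADWA11 over Ctrl at 21 dpi 1133 became 742 in male nuclei, 672 in fibroblast-type clusters, 259 in cluster 3, 528 in cluster 0, 518 and 3569 at the 2 minimums, and at 7 dpi 459 became 111 and 2675. Over time 2213 in Ctrl became 3866 without the top nuclei, 919 and 4317, and 1990 in ADWA11 became 1215 in female nuclei, 1271 in cluster 3, 901 and 4679. Members over other gate nuclei, 2410 genes higher and 3974 lower, gave 1441 and 2528 after thinning and 1450 and 1460 against nuclei with myofibroblast genes. The lower count was 1811 against nuclei with Lama1 and Lamc3, 1409 against those with Slc22a6 and Slc13a4 and 2402 among fibroblast-type nuclei.

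Of 133 single-gene ratios, 17 changed sign in at least 1 setting, and 5 of these were at least 2-fold over all members. edgeR's factors changed no sign. Within cluster 3 the ratios of these 5 had the other sign for Cxcl12 (-0.24), Vcam1 (-1.97) and Tnmd (0.17) in Tgfbr2-cKO over Ctrl, for Col24a1 (-2.03) in ADWA11 over Ctrl at 21 dpi and for Slc47a2 (-0.23) over time in ADWA11, and without cluster 18 for Vcam1 (-0.50). Among the values within cluster 3 the counting interval excludes 0 for Slc47a2 alone. The cause was not tested. Genes with few UMIs in the lower library, and every value from the 37 Tgfbr2-cKO members at 7 dpi, are limited by depth.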
